A study of Mus musculus with 66 samples.

Results

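Ubiquitin is a small protein that cells attach to other proteins to send them to the proteasome or to alter their traffic and signalling. An E1 enzyme activates ubiquitin, an E2 conjugating enzyme (gene symbols starting with Ube2) carries it, an E3 ligase selects the target, and deubiquitinating enzymes, the largest family of which are the ubiquitin-specific proteases (Usp), take it off again. In neurons this cycle sets the turnover of receptors and scaffolds at synapses. The genes described here are those whose symbol starts with Ube2, or with Usp and a digit, with Usp2 left out by the rule. Of 83 such symbols on the array, 71 had a probe set whose mean signal over all arrays lay at or above the 40th percentile of all probe sets (a log2 value of 5.10), and each was represented by its brightest probe set. These 71 were 28 Ube2 and 43 Usp symbols, out of 13196 genes measured in the same way. The just-included members were Usp43 (mean log2 level 5.32), Ube2cbp (5.60) and Usp38 (6.07), and the symbols just outside were Ube2t (4.86), Usp46os2 (4.79) and Usp18 (4.68). The 12 symbols that did not pass were Ube2c, Ube2d2b, Ube2l6, Ube2t, Ube2u, Usp17la, Usp18, Usp26, Usp44, Usp46os2, Usp50 and Usp9y. Both enzymes of the interferon-induced ISG15 system on the list, the E2 Ube2l6 and the protease Usp18, were thus too dim to be tested. The symbol rule also takes in genes that are not such enzymes or have only part of the activity. Usp6nl is a GTPase-activating protein, Ube2d-ps is a pseudogene, Ube2cbp is an E2-binding protein later renamed Ube3d, Ube2v1 and Ube2v2 are E2 variants without a catalytic cysteine, Ube2f carries NEDD8, and Usp39 is a splicing factor without protease activity.

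The study measured RNA from the medial prefrontal cortex of male mice aged 10 to 12 weeks on 66 Affymetrix arrays, each hybridised with RNA pooled from 4 to 5 animals. Every mouse was given an intraperitoneal injection of saline or of 1.8 g/kg ethanol, then went through 15 minutes of restraint and 10 minutes in the light-dark box, with tissue taken 4 hours after the injection, so the saline animals had been handled and stressed in the same way. The inbred strains C57BL6/J and DBA/2J gave 3 saline and 3 ethanol arrays each. The 27 BXD strains, recombinant inbred lines derived from crosses of those progenitors, gave 1 saline and 1 ethanol array each. Each BXD strain therefore has no replicate within a treatment, the pools hide the spread between animals, and in tissue RNA fewer cells of a type and less RNA per cell cannot be told apart. Nothing in the labels says that replicate pools came from separate experiments, so p-values measure the spread between these arrays. The labels state that samples were assigned at random to processing batches, but not which array was in which batch.

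The arrays were alike in overall signal, with medians of log2 values between 5.67 and 5.77 and SDs between 2.06 and 2.17. The main axis of variation over all genes held 13.5% of the variance and followed the array's SD (absolute Pearson r = 0.87 over 66 arrays). Saline DBA/2J replicate 1, with an SD of 2.07, was the lowest in SD of the 12 progenitor arrays, and the main counts that rest on it are given with and without it. In the 12 progenitor arrays the mean log2 level of the 4 measured excitatory neuron markers lay between 9.91 and 10.31. The 4 measured oligodendrocyte markers were lower in DBA/2J than in C57BL6/J after saline, with mean log2 levels of 8.16 to 8.60 against 9.07 to 9.22, and all 4 passed the test (2 of 4 after ethanol, 8.43 to 8.53 against 8.79 to 9.10). Of the 5 microglial markers, 2 were lower in DBA/2J after saline and 1 after ethanol. After ethanol 2 of 5 markers of meninges and fibroblasts were also lower in DBA/2J, with mean log2 levels of 7.89 to 8.03 against 8.12 to 8.28, and so was 1 of 4 excitatory neuron markers. The part of these differences in the results below was not tested.

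Whether ethanol altered these enzymes was asked in 27 BXD pairs and in each progenitor strain, with limma's moderated test and Benjamini-Hochberg adjustment over all 13196 genes. No member passed an adjusted p of 0.05 in any of these comparisons. In the BXD panel 0 of 71 members passed, beside 0.00758% of all genes. At an unadjusted p below 0.05 there were 3 members, beside 4.93% of the genes measured. The members' median log2 difference was -0.01, as was that of all genes, and 32 of the 71 differences (45.1%) were above 0, beside 37.6% of all genes.

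The smallest p in the panel belonged to Ube2cbp, a low-level member whose saline levels ran from 5.39 over a median of 5.62 to 5.95 and whose ethanol levels ran from 5.34 over 5.51 to 5.84 (n = 27 each). Its log2 level was lower after ethanol in 20 of 27 strains, by -0.10 on average (SE 0.03, adjusted p = 0.823). The ranges overlapped almost entirely. Usp43, another low-level member, differed by -0.09 (SE 0.04, adjusted p = 0.934) and was higher after ethanol in 9 of 27 strains. Usp10, a deubiquitinase of stress granule and p53 biology, differed by -0.05 (SE 0.02, adjusted p = 0.957), and Usp54 by 0.07 (SE 0.03, adjusted p = 0.957). These 4 members did not pass the test.

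The best-known members of the pathway were measured closely around no difference. Ube2n, the E2 that builds non-degradative chains with a Ube2v partner, had a log2 difference of -0.03 with a 95% interval from -0.08 to 0.03. Ube2k, an E2 that binds huntingtin, differed by -0.01 (interval -0.06 to 0.05), and Ube2d3, a broadly acting E2, by 0.00 (interval -0.04 to 0.05). For Usp7, the protease that acts on Mdm2 and p53, the difference was 0.00 (interval -0.05 to 0.05). Usp14, the proteasome-bound protease whose loss causes ataxia in mice, differed by 0.01 (interval -0.05 to 0.07). Usp9x, an X-linked protease needed for neuronal growth, differed by 0.04 (interval -0.04 to 0.13), and Usp46, an AMPA receptor deubiquitinase, by 0.01 (interval -0.05 to 0.08). Over all 71 members, the lowest bound of a 95% interval was -0.18 for Usp21 and the highest was 0.15 for Usp53. Single strains did vary: the SD of the 27 differences had a median of 0.17 over members and 0.18 over all genes, with 0.08 for Ube2d3 as the lowest member and 0.33 for Usp53 as the highest. With 1 array per strain and treatment, this spread holds array noise as well as any difference between strains in the response.

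**Figure D1:**
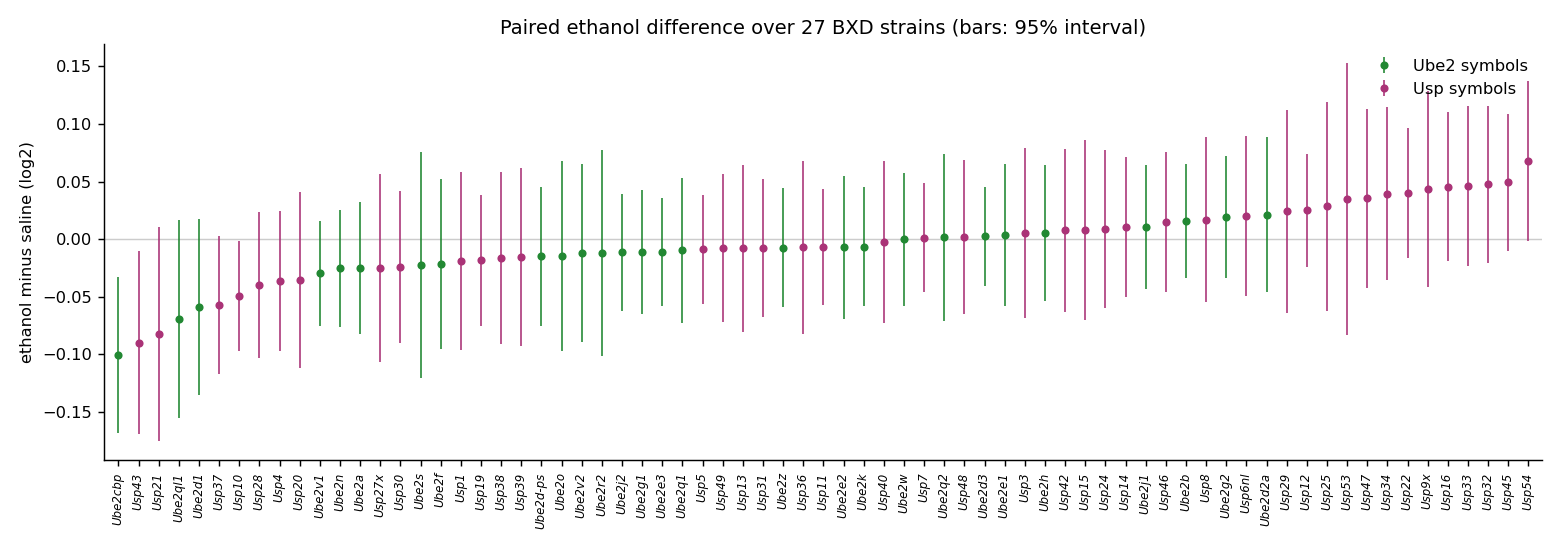
Mean paired difference in log2 level, ethanol minus saline, of the 71 members over 27 BXD strains, with 95% intervals as bars, ordered by size and coloured by family. The differences run from -0.10 for Ube2cbp to 0.07 for Usp54, and no member passed the adjusted test.

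In C57BL6/J, 0 of 71 members passed between 3 ethanol and 3 saline arrays, beside 0.00758% of all genes, and an unadjusted p below 0.05 was reached by 1, beside 4.98% overall. That member was Usp30, the mitochondrial outer membrane protease that opposes Parkin in mitophagy. Its saline levels were 7.52, 7.63 and 7.38 and its ethanol levels were 7.25, 7.34 and 7.29, a log2 difference of -0.21 (SE 0.10, adjusted p = 0.922). The ethanol arrays all lay below the saline arrays, as they did for 3 members (Usp30, Ube2v1 and Usp10), beside 6.07% of all genes. The reverse held for 0 members, beside 3.78%. The next smallest p-values were those of Usp46 (-0.19, adjusted p = 0.922), of Usp20, a relative of Usp33 (-0.18, adjusted p = 0.922), and of Ube2v1 (-0.14, adjusted p = 0.922). None of them passed.

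In DBA/2J, 0 of 71 members passed, beside 0% of all genes. Unadjusted p-values below 0.05 numbered 11, beside 12.5% of all genes. Of these, 8 had a higher mean after ethanol, beside 8.28% of all genes, and 3 a lower one, beside 4.18%. The smallest p belonged to Ube2d2a, a close relative of Ube2d3. Its log2 levels were 10.50, 10.34 and 10.31 after saline and 10.70, 10.76 and 10.81 after ethanol, a difference of 0.38 (SE 0.10, adjusted p = 0.167). The 2 treatments did not overlap. Ube2e1, an E2 with an extended amino terminus, had saline levels of 10.14, 10.38 and 10.31 and ethanol levels of 10.64, 10.59 and 10.67, a difference of 0.35 (SE 0.10, adjusted p = 0.209). Usp33, a protease known from Robo1 and adrenergic receptor traffic, differed by 0.33 (SE 0.10, adjusted p = 0.234), and Ube2cbp by -0.39 (SE 0.11, adjusted p = 0.198). In all, 9 members had every ethanol array above every saline array, beside 9.66% of all genes, and 7 the reverse, beside 8.22%. These were 12.7% and 9.86% of the members. Without saline DBA/2J replicate 1, 7 members had an unadjusted p below 0.05, 4 with a higher and 3 with a lower mean. The share of all genes in that fit was not computed, so this count cannot be set against the background. The differences were then 0.44 for Ube2d2a (adjusted p = 0.486), 0.28 for Ube2e1 (0.668), 0.32 for Usp33 (0.643) and -0.30 for Ube2cbp (0.666). The median over the Ube2 members was 0.09 with that array and 0.03 without it.

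Averaged over both progenitors, 0 of 71 members passed, beside 0.0455% of all genes. Unadjusted p-values below 0.05 numbered 11, beside 8.84%. The smallest p-values were those of Ube2d2a (0.22, SE 0.07, adjusted p = 0.452), Usp30 (-0.22, SE 0.07, adjusted p = 0.452), Ube2e1 (0.19, SE 0.07, adjusted p = 0.481) and Ube2cbp (-0.21, SE 0.08, adjusted p = 0.481). The test of the difference between the strains' responses also passed 0 of 71 members, beside 0% of all genes. Unadjusted p-values below 0.05 numbered 5, beside 8.31%. Its smallest p-values were those of Usp33 (0.42, SE 0.15, adjusted p = 0.563), Ube2d2a (0.31, SE 0.14, adjusted p = 0.581), Ube2cbp (-0.37, SE 0.16, adjusted p = 0.581) and Ube2e1 (0.32, SE 0.15, adjusted p = 0.589). Without saline DBA/2J replicate 1 the count at an unadjusted p below 0.05 was 2, with no share of all genes computed beside it. The differences were then 0.41 for Usp33, 0.38 for Ube2d2a, -0.27 for Ube2cbp and 0.25 for Ube2e1 (adjusted p = 0.950 for each). These comparisons share arrays with the DBA/2J comparison. In the BXD panel, which shares none, the same 4 members had ethanol differences of 0.05 for Usp33, 0.02 for Ube2d2a, 0.00 for Ube2e1 and -0.10 for Ube2cbp.

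The progenitor strains were compared with each other within each treatment. Among saline animals, 9 of 71 members differed (12.7%), beside 10.3% of all genes, so the share was near the background. Usp30 and Ube2cbp were higher in DBA/2J, and Usp36, Ube2e1, Ube2e2, Ube2e3, Ube2d2a, Usp27x and Usp33 were lower. The 2 higher were 2.82% of the members, beside 4.07% of all genes, and the 7 lower were 9.86%, beside 6.27%. Every saline DBA/2J array lay above every saline C57BL6/J array for 9 members, beside 15.8% of all genes, and below for 15, beside 14.6%. Among ethanol animals, 4 of 71 members differed (5.63%), beside 7.23% of all genes. Usp25, Usp30 and Usp46 were higher in DBA/2J, beside 4.34% of all genes, and Usp36 was lower, beside 2.89%. The ethanol arrays of the strains did not overlap for 6 members higher in DBA/2J, beside 16.2%, and for 5 lower, beside 8.93%. Usp36 and Usp30 passed in both, which is 2 of the 9 saline and 2 of the 4 ethanol calls. Over all genes, 596 passed in both, of 1365 saline and 954 ethanol calls. The saline and ethanol comparisons use different arrays, although the fit pools their spread.

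Usp36, a nucleolar deubiquitinase of ribosome production, had the smallest adjusted p in both comparisons. Its saline levels were 7.18, 7.21 and 6.85 in C57BL6/J and 6.52, 6.48 and 6.45 in DBA/2J. Its ethanol levels were 6.98, 7.22 and 7.22 in C57BL6/J and 6.61, 6.78 and 6.66 in DBA/2J. The strains did not overlap under either treatment. The difference was -0.60 after saline (SE 0.10, adjusted p = 0.00105, 1.52-fold lower in DBA/2J) and -0.45 after ethanol (SE 0.10, adjusted p = 0.0102, 1.37-fold lower). The saline call held without each of the 12 arrays in turn, and the ethanol call held in 10 of 12 such fits. Both were lost with all 66 arrays in 1 fit, with an adjusted p of 0.0849 after saline and 0.269 after ethanol. That fit takes the BXD arrays as groups by treatment, so differences between BXD strains add to its spread.

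Usp30 went the other way. Beside the C57BL6/J levels already given, its levels in DBA/2J were 7.97, 7.81 and 7.87 after saline and 7.47, 7.69 and 7.82 after ethanol. All DBA/2J arrays lay above all C57BL6/J arrays of the same treatment. The differences were 0.37 after saline (SE 0.10, adjusted p = 0.0201, 1.30-fold) and 0.37 after ethanol (SE 0.10, adjusted p = 0.0285, 1.29-fold). The saline call held in 17 of 22 alternative fits and the ethanol call in 16 of 22.

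Usp46 acts with the cofactor Wdr48, and in mice a deletion in it alters immobility in tests of behavioural despair. Its levels were 9.96, 9.93 and 9.65 in saline C57BL6/J and 10.13, 10.19 and 10.10 in saline DBA/2J, a difference of 0.29 that did not pass (SE 0.09, adjusted p = 0.0530). After ethanol they were 9.71, 9.57 and 9.71 against 10.00, 9.91 and 10.07, a difference of 0.33 that passed (SE 0.09, adjusted p = 0.0356, 1.26-fold). That call held in 13 of 22 alternative fits. The strains did not overlap under either treatment.

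Usp25, a relative of Usp28 with roles in inflammatory signalling and protein quality control, passed after ethanol only, and the difference between treatments was not significant (0.43, SE 0.23, adjusted p = 0.613). Its saline levels were 5.74, 5.99 and 6.01 in C57BL6/J and 5.97, 6.48 and 6.05 in DBA/2J, which overlap (0.25, SE 0.17, adjusted p = 0.364). Its ethanol levels were 6.29, 5.78 and 5.63 against 6.33, 6.77 and 6.65, which do not overlap (0.68, SE 0.17, adjusted p = 0.0181, 1.60-fold). The ethanol call held in 16 of 21 alternative fits.

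The ubiquitin enzymes lower in saline DBA/2J included all 3 E2s of the Ube2e group. Ube2e1 had levels of 10.71, 10.47 and 10.79 in saline C57BL6/J against the DBA/2J levels given above, a difference of -0.38 (SE 0.10, adjusted p = 0.0285, 1.30-fold lower). For Ube2e2 they were 9.19, 9.08 and 9.45 against 8.81, 8.78 and 8.98 (-0.39, SE 0.10, adjusted p = 0.0194). For Ube2e3 they were 10.71, 10.66 and 10.80 against 10.33, 10.44 and 10.46 (-0.32, SE 0.08, adjusted p = 0.0178). In each case every saline DBA/2J array lay below every saline C57BL6/J array. The same held for Ube2d2a, with 10.87, 10.55 and 10.76 in C57BL6/J (-0.34, SE 0.10, adjusted p = 0.0311). It also held for Usp33, with 9.74, 9.65 and 9.60 against 9.28, 9.41 and 9.20 (-0.37, SE 0.10, adjusted p = 0.0318). Usp27x, an X-linked relative of Usp22, had levels of 7.52, 7.64 and 7.50 against 7.01, 7.23 and 7.28 (-0.38, SE 0.10, adjusted p = 0.0183). Ube2cbp was higher, with 6.09, 5.67 and 5.95 in DBA/2J against 5.59, 5.40 and 5.62 (0.37, SE 0.11, adjusted p = 0.0486). This call held in 4 of 21 alternatives, with an adjusted p of up to 0.223. The calls of Ube2e1 and Ube2d2a held in 17 of 22, those of Ube2e2, Ube2e3 and Usp27x in 18 of 22 and that of Usp33 in 14 of 22.

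After ethanol these 7 members did not pass between the strains. Their differences were -0.06 for Ube2e1, -0.15 for Ube2e2, -0.08 for Ube2e3, -0.03 for Ube2d2a, 0.05 for Usp33, -0.11 for Usp27x and 0.00 for Ube2cbp. Their DBA/2J ethanol effect and the saline strain difference share the saline DBA/2J arrays, so the opposite signs of these values are not separate evidence. None of the 7 passed the test of the difference between responses, with adjusted p-values of 0.563 for Usp33, 0.581 for Ube2d2a and Ube2cbp, 0.589 for Ube2e1, 0.597 for Ube2e3 and Usp27x, and 0.628 for Ube2e2. Over the 54 BXD arrays their Pearson r with array SD was 0.69 for Usp33, 0.66 for Ube2d2a, 0.57 for Usp27x, 0.52 for Ube2e1, 0.34 for Ube2e2, 0.19 for Ube2e3 and -0.16 for Ube2cbp. For the members that passed after ethanol it was -0.03 for Usp36, 0.18 for Usp25, 0.27 for Usp46 and 0.33 for Usp30. The part of array SD in the strain differences was not tested beyond the fit with it as a covariate.

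The number of saline calls depended on few arrays. It was 2 without saline DBA/2J replicate 1 (Usp36 and Ube2d2a), 2 without saline C57BL6/J replicate 3, 3 without saline C57BL6/J replicate 1 and 5 without saline DBA/2J replicate 3, and with the array SD as a covariate it was also 2 (Usp36 and Ube2d2a). The ethanol count of 4 was 2 without each of C57BL6/J replicates 1 and 2 and DBA/2J replicates 1 and 2, 1 without DBA/2J replicate 3 and 0 without C57BL6/J replicate 3. The share of all genes called in these fits was not computed. Whether the counts of members fell more than those of all genes is therefore not known.

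**Figure D2:**
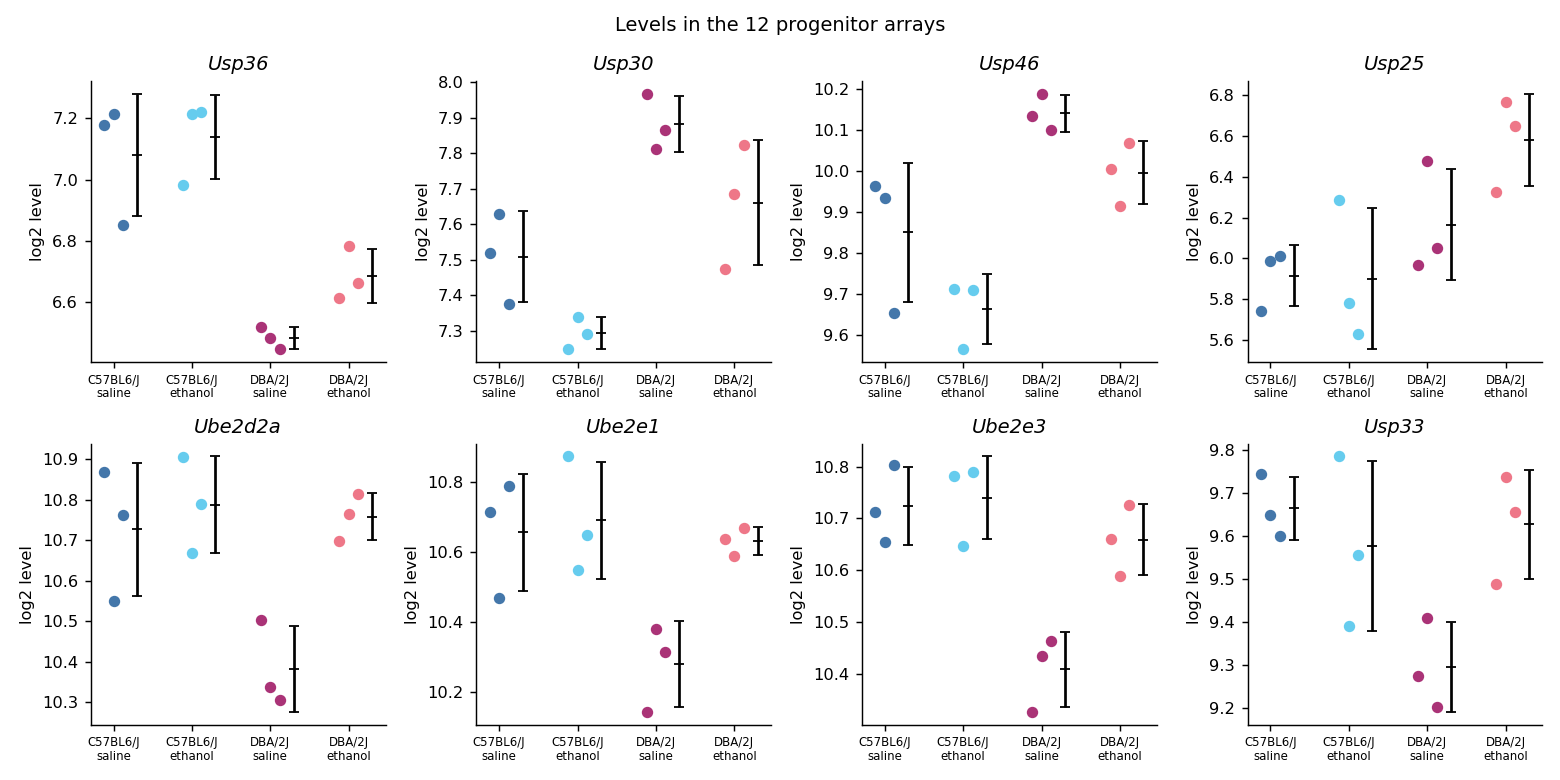
Log2 level of 8 members, chosen after their values were seen, in each of the 12 progenitor arrays (points), with the mean and SD of each group of 3 as bars; the vertical axes do not start at 0 and differ between panels. Usp36, Usp30 and Usp46 separate the strains under both treatments, whereas Ube2d2a, Ube2e1, Ube2e3 and Usp33 were lower in the saline DBA/2J group.

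By family, the median saline difference was -0.12 for the 28 Ube2 symbols, 9 of them above 0, and 0.08 for the 43 Usp symbols, 26 of them above 0. For all genes it was 0.02, with 54.6% of them above 0. Of the calls, 1 Ube2 member was higher in DBA/2J and 4 were lower, and 1 Usp member was higher and 3 were lower. Of all genes, 4.07% were called higher and 6.27% lower. The contrast between the families was not tested. Without saline DBA/2J replicate 1 the medians were -0.08 and 0.05. After ethanol they were -0.02 for Ube2 and 0.05 for Usp, beside 0.03 for all genes, and all 4 calls were Usp members.

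**Figure D3:**
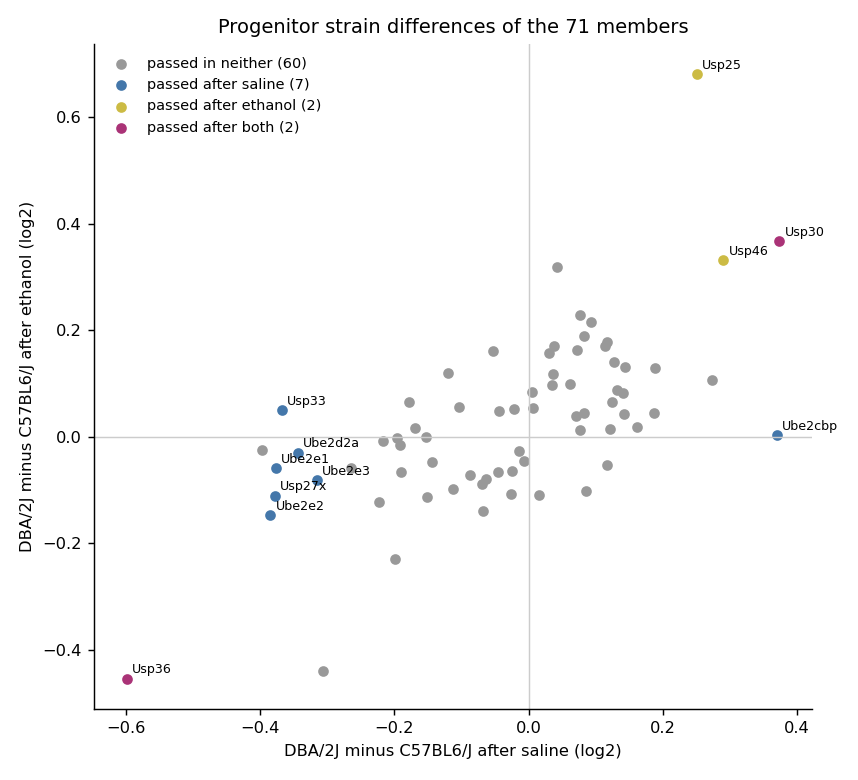
DBA/2J minus C57BL6/J difference in log2 level of each of the 71 members after saline (horizontal axis) and after ethanol (vertical axis), coloured by the comparison in which it passed. Usp36 lies lowest on both axes at -0.60 and -0.45, Usp25 highest after ethanol at 0.68, and the members that passed after saline alone lie between -0.15 and 0.05 on the ethanol axis.

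Whether the members have a stable level in each strain was asked in the BXD panel, whose arrays the progenitor comparisons do not use. A moderated F test over strains, with treatment as a covariate, passed 9 of 71 members (12.7%), beside 20.4% of all genes. They were Usp25, Usp36, Usp46, Ube2d3, Usp11, Usp30, Usp37, Usp45 and Usp33. The intraclass correlation, an estimate of the share of variance common to a strain's saline and ethanol arrays that can fall below 0, had a median of 0.18 over the 71 members and of 0.18 over all genes. Of the 11 members that differed between progenitors after saline or ethanol, 5 also passed the strain test, as 1128 of 1723 such genes did overall.

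Usp25 had the highest intraclass correlation of the members, 0.81 (adjusted p of the F test 1.88e-08). Its mean level per strain ran from 5.63 in BXD9 over a median of 6.30 to 6.79 in BXD23. In BXD9 the saline and ethanol arrays read 5.71 and 5.55, and in BXD23 they read 6.89 and 6.70. The widest gap between neighbouring strain levels, 0.20 wide and starting at 6.30, had 14 strains below it and 13 above, and the DBA/2J mean lay inside it. Relative to the midpoint of the progenitor means, 14 strains lay on the DBA/2J side and 13 on the C57BL6/J side, and 24 of 27 had both arrays on the same side. The strain levels ran beyond the progenitor means of 5.91 and 6.37 (6 arrays each). Single progenitor arrays, however, ran from 5.63 in C57BL6/J to 6.77 in DBA/2J, nearly the range of the strain levels.

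Usp36 followed with 0.73 (adjusted p = 8.51e-06). Its strain levels ran from 6.47 in BXD38 over a median of 6.71 to 7.22 in BXD18, and a gap from 6.83 to 7.04 separated 17 strains from 10. The 17 lay on the DBA/2J side and the 10 on the C57BL6/J side, with both arrays on the same side in 26 of 27 strains. The progenitor means were 6.58 in DBA/2J and 7.11 in C57BL6/J.

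Ube2d3 had an intraclass correlation of 0.69 (adjusted p = 0.00981) over strain levels of 10.38 to 10.69. Usp11, an X-linked protease of growth factor signalling and DNA repair, had 0.58 (adjusted p = 0.0138) over 9.15 to 9.58. For Usp46 it was 0.56 (adjusted p = 0.00522), with 15 strains on the DBA/2J side, 12 on the C57BL6/J side and 21 of 27 with both arrays on the same side. Usp37, a protease of DNA replication, had 0.50 (adjusted p = 0.0186). Usp30 had 0.49 (adjusted p = 0.0141), with 12 strains on the DBA/2J side, 15 on the C57BL6/J side and 17 of 27 with both arrays on the same side. Ube2e3 had 0.51 and did not pass (adjusted p = 0.0777). At the other end were Ube2z, the E2 charged by Uba6 (-0.47), Usp39 (-0.31), Usp5, which takes apart free ubiquitin chains (-0.29), and Ube2o, a large enzyme with E2 and E3 activity (-0.27). Among other well-known members it was 0.34 for Usp14, 0.27 for Ube2k, 0.13 for Ube2n, 0.12 for Usp9x and -0.18 for Usp7.

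The calls of Usp25, Usp36, Ube2d3, Usp11 and Usp46 held in all alternatives run, leaving out each strain included. Usp33 passed in 16 of 27 fits that left out a strain, with an adjusted p of 0.259 without BXD38, 0.0554 without BXD14 and 0.726 with array SD as a covariate. Usp45 passed in 22 of 27, with 0.0808 without BXD38, 0.0716 without BXD14 and 0.476 with the covariate. Usp37 did not pass with the covariate (0.122), and Usp30 did not pass without BXD14 (0.0711). The arrays of BXD38 and the saline array of BXD14 were among the 5 arrays of lowest SD of all 66.

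**Figure D4:**
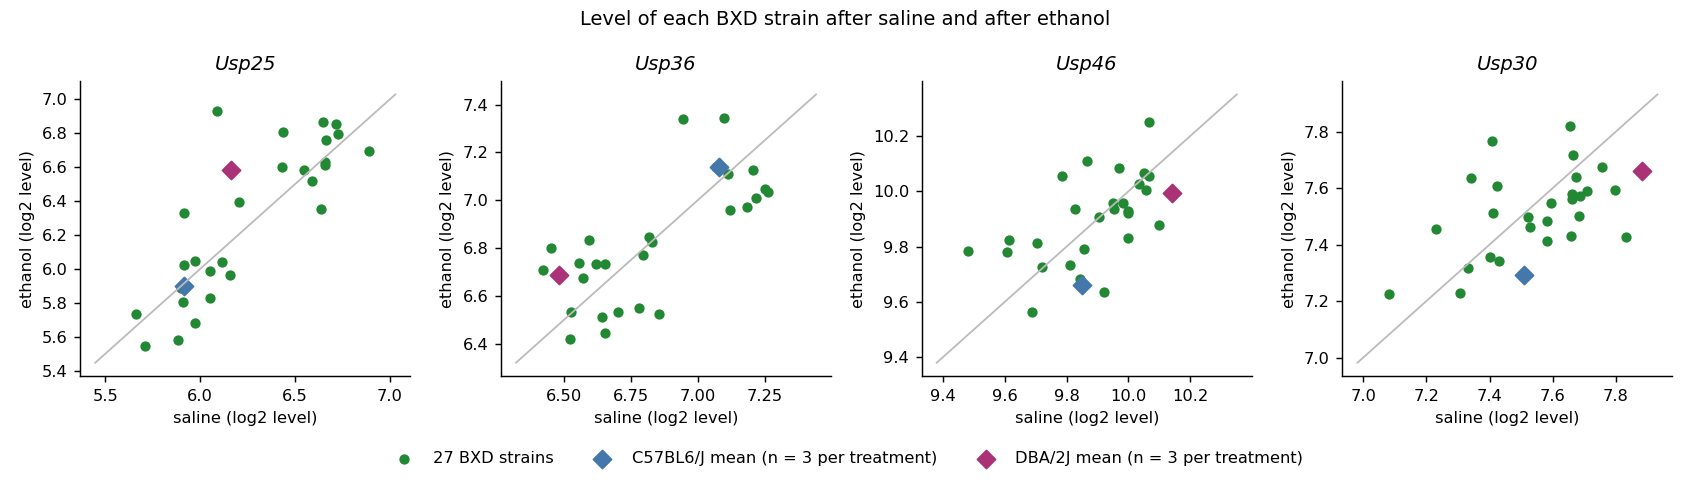
Log2 level of Usp25, Usp36, Usp46 and Usp30, chosen after their values were seen, in each of 27 BXD strains after saline (horizontal) and ethanol (vertical), with progenitor means of 3 arrays per treatment as diamonds and equality as a line. For Usp36, 17 strains lie on the DBA/2J side of the progenitor midpoint and 10 on the C57BL6/J side. For Usp25 the strain levels run from 5.63 to 6.79, beyond the progenitor means, while single progenitor arrays run from 5.63 to 6.77.

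**Figure D5:**
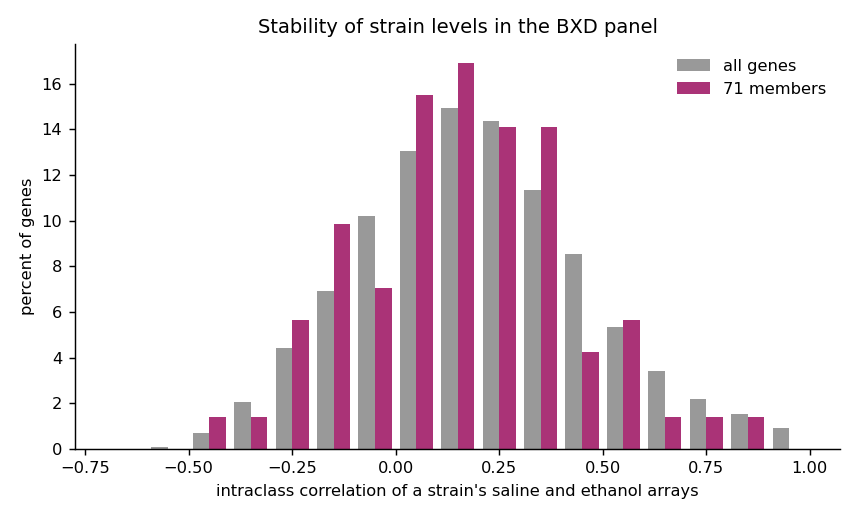
Distribution of the intraclass correlation between a strain's saline and ethanol arrays for the 71 members and for all 13196 genes, in percent of genes per bin. The distributions share a median of 0.18, and Usp25 at 0.81 is the highest member.

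Other probe sets of a gene did not always bear the same difference. The other passing probe set of Usp46 went the same way, with 0.63 after saline, 0.68 after ethanol and an intraclass correlation of 0.87. That of Usp30, which was as bright, had -0.14 and -0.03 with an intraclass correlation of 0.61, so the sign of the Usp30 strain difference depends on the probe set. The dimmer other passing set of Usp36 had 0.19 and 0.13 (intraclass correlation -0.23), and that of Usp25 had 0.18 and -0.11 (0.22). The other passing probe sets of Ube2d2a had saline differences between -0.11 and -0.09, and that of Ube2e1 had 0.35. Large strain differences also lay on dimmer passing sets of uncalled members, which the main test by brightest probe set did not cover. After saline they were 1.04 for Ube2w (intraclass correlation 0.77), -0.87 for Ube2j2 (0.68) and -0.60 for Usp53 (0.73). Each kept its sign after ethanol. The brightest sets of these genes had saline differences of -0.07, 0.01 and -0.20. Over the 71 members, 62 of 102 further probe sets had the sign of the brightest after saline and 58 of 102 after ethanol. Probe sets read different parts of a transcript, and whether the strains differ in sequence under a probe was not tested.

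The start-site regions of the 4 members, chosen after their values were seen, that passed in the ethanol strain comparison and in the BXD strain test are shown to place them in the genome. They are RefSeq sequences of build GRCm38.p6, from 250 bases before to 50 after the start, read along the transcript: Usp36 at chr11:118290195-118290494 (minus strand), Usp25 at chr16:77013819-77014118 (plus strand), Usp46 at chr5:74068362-74068661 (minus strand) and Usp30 at chr5:114100083-114100382 (plus strand). Capitals mark matches on either strand to the motifs searched, the GC box (GGGCGG), the CCAAT box (CCAAT), the ETS motif (CCGGAAGT), the CRE (TGACGTCA) and the E-box (CACGTG).
Usp36: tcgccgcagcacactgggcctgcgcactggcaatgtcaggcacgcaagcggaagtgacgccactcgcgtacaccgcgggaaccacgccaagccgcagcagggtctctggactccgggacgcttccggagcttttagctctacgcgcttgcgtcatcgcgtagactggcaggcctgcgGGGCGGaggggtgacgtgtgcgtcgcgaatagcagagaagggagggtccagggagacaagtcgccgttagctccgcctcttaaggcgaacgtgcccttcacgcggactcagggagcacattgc
Usp25: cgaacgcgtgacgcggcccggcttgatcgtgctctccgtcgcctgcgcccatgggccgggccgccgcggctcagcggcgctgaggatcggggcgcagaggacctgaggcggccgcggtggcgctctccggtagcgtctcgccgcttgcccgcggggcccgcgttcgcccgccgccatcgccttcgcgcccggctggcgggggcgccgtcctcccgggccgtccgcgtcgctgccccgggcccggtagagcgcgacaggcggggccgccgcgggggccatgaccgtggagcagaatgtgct
Usp46: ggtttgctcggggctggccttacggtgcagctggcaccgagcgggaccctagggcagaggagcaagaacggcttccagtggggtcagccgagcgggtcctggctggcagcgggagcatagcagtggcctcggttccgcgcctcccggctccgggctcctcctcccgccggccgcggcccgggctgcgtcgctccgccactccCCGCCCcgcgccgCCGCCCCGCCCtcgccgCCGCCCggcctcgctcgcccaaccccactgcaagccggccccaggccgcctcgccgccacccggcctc
Usp30: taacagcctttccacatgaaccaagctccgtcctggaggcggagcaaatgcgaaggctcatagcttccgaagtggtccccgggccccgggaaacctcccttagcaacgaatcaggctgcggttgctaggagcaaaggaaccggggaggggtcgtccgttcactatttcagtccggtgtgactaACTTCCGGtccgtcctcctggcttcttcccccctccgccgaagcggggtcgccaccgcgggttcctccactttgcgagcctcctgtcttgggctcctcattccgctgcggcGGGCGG
Usp36 holds 1 GC box, Usp46 holds 4 and Usp30 holds 1 GC box and 1 ETS motif, while Usp25 holds no match to these letters. All 4 windows are rich in CpG, with 33 CpG dinucleotides in Usp36, 54 in Usp25, 38 in Usp46 and 25 in Usp30. Of the 71 members, 55 had such a window, and their median was 30 CpG dinucleotides and 68% G and C, beside 20 and 60.7% for 10603 tested genes. A GC box was present in 42 of 55 members (76.4%), beside 62.3% of all tested windows of that length, and a CCAAT box in 11 (20%), beside 37.9%. An ETS motif was present in 10.9% beside 7.46%, an E-box in 14.5% beside 10.1% and a CRE in 5.45% beside 3.08%. These matches are descriptions of letters and were not tested.

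Across the 27 strain levels, the median signed Pearson r over 2485 pairs of members was 0.14, beside 0.01 over all genes. It was 0.27 between Usp members, 0.10 between Ube2 members and 0.05 across families. These correlations share arrays, and the SD of the array moves with many members, so they are descriptions. The part of array SD in the higher median of the members was not tested. The highest were Usp33 with Usp45 (0.85), Usp14 with Usp33 (0.85) and Ube2d2a with Ube2e1 (0.83), and these 5 genes had r of 0.52 to 0.69 with array SD. The lowest was Usp21 with Usp34 (-0.73). For sequence relatives, the 22 pairs of paralogs had a median of 0.21, beside 0.14 for all pairs of members. They ran from -0.19 for Ube2d1 with Ube2d3 to 0.70 for Usp4 with Usp11. Some genes in these pairs had intraclass correlations below 0, such as Usp5 (-0.29) and Ube2q1 (-0.26). A low r can therefore hold array noise and does not show that relatives vary apart. Within the Ube2e group, r was 0.60 for Ube2e1 with Ube2e3, -0.10 for Ube2e1 with Ube2e2 and -0.09 for Ube2e2 with Ube2e3.

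The rest of the ubiquitin pathway was read from 8 lists, with 171 genes measured in all. They covered ubiquitin genes, E1 enzymes, E3 ligases, cullin ligase parts, other deubiquitinating enzymes, SUMO and NEDD8 enzymes and Usp partners. For the 4 ubiquitin genes, no probe set carrying the listed symbol alone passed the filter, so they were not tested, which does not mean that they had no signal. No ethanol effect passed in any of the 5 ethanol comparisons. Between saline progenitors 6 of 171 passed, 2 higher and 4 lower in DBA/2J, beside 10.3% of all genes. Between ethanol progenitors 7 of 171 did, 6 higher and 1 lower, beside 7.23%. Eny2, a partner of Usp22 in the deubiquitinating module of the SAGA complex, was higher in DBA/2J by 1.09 after saline (adjusted p = 1.58e-05) and 1.35 after ethanol (adjusted p = 1.53e-06). Skp1, the adaptor of cullin ligases, was lower by -0.55 (adjusted p = 0.00342) and -0.43 (adjusted p = 0.0205). Uba6, the E1 that charges Ube2z, was higher after ethanol by 0.67 (adjusted p = 0.00477), and so was Zranb1, a deubiquitinase of the OTU family, by 0.82 (adjusted p = 0.00224). Hectd2, a HECT ligase, was lower after saline by -0.88 (adjusted p = 0.00105). In the BXD strain test 20 of 171 passed, beside 20.4% of all genes, among them Eny2, Skp1, Uba6, Zranb1 and Hectd2.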

How the data were processed

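The deposited log2 values were used as they stand; the submitters' processing notes name affy and RMA, whose versions, like array batches, are not given here. Of 45037 probe sets, 34945 carry 1 symbol, 932 several and 9160 none in the platform annotation. Only those with 1 symbol were used. For 34741 of these probe sets the Entrez identifier was found among the RefSeq genes, and the symbol was taken from there, whether changed or not. Genes were kept at or above the 40th percentile, by their brightest probe set. limma 3.58.1 (lmFit and eBayes, R 4.3.3) was run two-sided with Benjamini-Hochberg adjustment at 0.05: 1 fit of the 12 progenitor arrays by group, and 1 of the 54 BXD arrays blocked by strain, with an F test over strains. The fits were first tested on simulated data. Named members are those past the threshold, otherwise the 4 smallest p-values, the 8 highest and 4 lowest intraclass correlations, and a list of well-known members; members, lists and rules were chosen with earlier results of these data known. BXD pairs come from the strain label.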

Additional observations from a re-analysis of the deposited data

How the results depend on the processing

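The 5 ethanol comparisons gave 0 called members under every alternative run: other dim-signal filters, all probe sets, median centring, repeated quantile normalization, a trended robust prior, array weights, all 66 arrays together, the replicate block, array SD as a covariate (added after seeing the data) and each array or strain left out. For the BXD pairs the fit with no replicate block also gave 0. The saline strain count of 9 was 3 with all 66 arrays in 1 fit, 2 with array SD as a covariate and 2 to 9 with 1 array left out. The ethanol strain count of 4 was 2 with the replicate block, 0 with all 66 arrays in 1 fit and 0 to 5 with 1 array left out. In the fit of all 66 arrays, differences between BXD strains count as spread. The strain-effect count of 9 was 7 to 12 with 1 strain left out and 13 with array weights. Among the alternatives, calls over all genes were counted only for median centring and repeated quantile normalization. The other counts of members cannot be set against the background. With each array centred on its median, the split of all genes between saline progenitors moved from 537 higher and 828 lower to 355 and 1013, and that of members from 2 and 7 to 1 and 8. Same-numbered progenitor arrays did not deviate together (median r -0.08 over 18 pairs, against 0.04 over 36 pairs of different numbers), so the numbers were not taken to pair them; the replicate block gave 8 saline calls.

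Of 1446 recomputed values for named members, 1346 kept direction and side of the threshold, 78 lost their call, 1 gained a call and 21 changed sign. Values not called in the main fit and again not called count as kept. Usp30 and Usp37 each lost 1 call in the BXD strain test, and the other losses were between the progenitors. After saline they ran from 1 of 22 alternatives for Usp36 to 17 of 21 for Ube2cbp. After ethanol they ran from 3 of 22 for Usp36 to 9 of 22 for Usp46. The sign changes were all in BXD ethanol differences near 0. With 1 strain left out the values ran from -0.0154 to 0.00268 for Ube2k, from -0.00416 to 0.00877 for Ube2d3, from -0.00733 to 0.00827 for Usp7 and from -0.00181 to 0.0235 for Usp14, which was also below 0 with array weights (-0.0065). The number of arrays limits the precision, and the pooling of animals leaves the spread between animals unknown.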
